A study of Caenorhabditis elegans with 2 samples.

Results

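Regions bound by SWSN-7 that lay on the autosomes of Caenorhabditis elegans between or beside a pair of promoters on opposite strands are described here. There were 693 such regions among 3976 bound regions in all (17.4%), and they made up 21.3% of the 3251 autosomal ones (exact 95% interval 19.9 to 22.8). A region was taken when its summit, the base of highest enrichment, was in the promoter window (1000 bp upstream through 500 bp downstream of a 5′ end) of protein-coding transcripts on both strands, and when it overlapped no tRNA gene. The rule used positions and no signal value. Overlapping entries of the list were merged first, and the strongest gave the merged region its summit and value.

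The assay was ChIP-seq, chromatin immunoprecipitation followed by sequencing, which recovers DNA fragments attached to a chosen protein, in 2 biological replicates that formed the only group. The animals were whole hermaphrodite L1 larvae of strain OP512, with the genotype unc-119(tm4063) III; wgIs512, collected 6 hours after the release of L1 larvae that had been starved following bleaching. The wgIs512 transgene encodes SWSN-7 with GFP and FLAG at its C terminus, and both replicates carry it together with the unc-119 mutation. The sources used here give neither the promoter of the transgene nor the state of the native swsn-7 gene. Chromatin was sonicated and precipitated with an antibody against GFP, although another label field gives swsn-7 as the antibody. Whole larvae hold many cell types, so the values are averages over them, and binding in fewer cells cannot be told apart from weaker binding in all cells. The enrichment given for each region is the peak caller's signal value, which is the authors' own, has no unit and can be compared only within a list. The files hold no read counts, so the depth of each replicate is unknown. Control chromatin was not analysed here.

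SWSN-7 is a subunit with an ARID domain, a DNA-binding fold, in the PBAF class of SWI/SNF complexes. These complexes use ATP to slide or evict nucleosomes and so open or close chromatin at promoters and enhancers. At a divergent promoter, neighbouring genes are transcribed away from each other out of a shared stretch of DNA, and a remodeller placed there could serve either gene or both. The compact worm genome holds many such gene pairs.

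The DNA at the summits is given first for the 3 strongest regions whose sequence is shown, as 200 bp of build ce11 (the WBcel235 assembly, sequence from RefSeq) on the plus strand with the summit at position 101. The fourth strongest region is given by position and value only. Capitals mark every match, on either strand, to 12 short motifs searched for and to 2 heptamers described further on. The gene on the minus strand is named first, and it is read leftward from the window, whereas the gene on the plus strand is read rightward.
rpl-20 and Y17G9B.5 (chrIV:4749965-4750164): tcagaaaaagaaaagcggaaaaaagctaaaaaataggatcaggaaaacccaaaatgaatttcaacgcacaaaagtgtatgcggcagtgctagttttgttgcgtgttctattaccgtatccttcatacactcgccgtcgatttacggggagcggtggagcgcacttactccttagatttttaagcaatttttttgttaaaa
K01G5.10 and tasp-1 (chrIII:10759153-10759352): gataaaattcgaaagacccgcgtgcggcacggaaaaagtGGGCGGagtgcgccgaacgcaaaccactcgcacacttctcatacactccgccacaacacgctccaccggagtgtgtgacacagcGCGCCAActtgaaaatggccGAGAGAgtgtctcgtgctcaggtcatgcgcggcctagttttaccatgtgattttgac
rpl-15 and K11H12.8 (chrIV:654829-655028): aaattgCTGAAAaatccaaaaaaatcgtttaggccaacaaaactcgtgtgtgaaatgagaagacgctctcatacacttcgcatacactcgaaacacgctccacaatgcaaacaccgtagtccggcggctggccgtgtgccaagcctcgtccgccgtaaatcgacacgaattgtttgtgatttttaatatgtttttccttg

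The window at tasp-1 held GAGAGA once and, read on the minus strand, TTGGCGC and CCGCCC once each, and its GC content was 55.5%. The window at rpl-20 held none of the motifs and had a GC content of 39.0%. That at rpl-15 held only TTTCAG, which is also the letter string of a 3′ splice site, and had a GC content of 44.5%.

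Regions with a gene of a listed functional group on each strand are shown next, because their single summit lay in reach of listed genes on both sides. These 4 were the strongest of that kind outside the first chromosome.
hsp-110 and rpn-3 (chrIII:8447048-8447247): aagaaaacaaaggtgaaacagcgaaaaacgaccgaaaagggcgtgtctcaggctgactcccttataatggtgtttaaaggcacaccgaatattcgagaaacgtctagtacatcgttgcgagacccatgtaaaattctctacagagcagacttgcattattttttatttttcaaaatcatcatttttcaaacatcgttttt
eef-1A.1 and rfc-4 (chrIII:6971981-6972180): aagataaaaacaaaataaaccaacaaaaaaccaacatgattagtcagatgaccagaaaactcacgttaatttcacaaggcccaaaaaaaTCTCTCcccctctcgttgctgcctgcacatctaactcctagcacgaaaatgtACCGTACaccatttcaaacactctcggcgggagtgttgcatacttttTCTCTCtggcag
dnj-19 and nhr-47 (chrV:5505147-5505346): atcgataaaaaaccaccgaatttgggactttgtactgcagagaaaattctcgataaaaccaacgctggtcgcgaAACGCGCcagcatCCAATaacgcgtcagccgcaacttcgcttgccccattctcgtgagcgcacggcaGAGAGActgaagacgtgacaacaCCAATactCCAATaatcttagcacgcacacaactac
efl-1 and fbxa-90 (chrV:16965757-16965956): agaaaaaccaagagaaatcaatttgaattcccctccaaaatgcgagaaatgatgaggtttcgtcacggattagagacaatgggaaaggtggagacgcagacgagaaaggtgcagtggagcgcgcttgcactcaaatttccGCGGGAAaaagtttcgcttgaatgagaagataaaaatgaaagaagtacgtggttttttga

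The eef-1A.1 and rfc-4 window held GAGAGA on the minus strand at 2 places and ACCGTAC once. The dnj-19 and nhr-47 window held CCAAT 3 times, GAGAGA and AACGCGC, and that of hsp-110 and rpn-3 held none of them. The efl-1 window held TTCCCGC, the letters recognised by E2F-type factors in animals, and efl-1 itself encodes a worm E2F. A match is only an occurrence of letters, and binding of any factor to it was not measured. A last set was chosen after its sequences were seen, because each holds a heptamer over-represented at these regions. AACGCGC stands in the hsp-90 window and ACCGTAC, on the minus strand, in the cct-8 window.
C47E8.4 and hsp-90 (chrV:14685682-14685881): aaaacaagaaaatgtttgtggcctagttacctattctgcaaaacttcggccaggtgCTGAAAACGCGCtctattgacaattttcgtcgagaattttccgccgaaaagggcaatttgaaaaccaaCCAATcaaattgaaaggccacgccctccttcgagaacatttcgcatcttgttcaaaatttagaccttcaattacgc
cct-8 and Y55F3AR.2 (chrIV:1094255-1094454): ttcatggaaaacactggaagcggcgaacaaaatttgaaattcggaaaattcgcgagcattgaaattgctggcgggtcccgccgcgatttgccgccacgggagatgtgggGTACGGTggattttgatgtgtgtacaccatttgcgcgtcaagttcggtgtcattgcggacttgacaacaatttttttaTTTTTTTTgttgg

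The gene pairs were arranged almost without exception head to head, with the minus-strand 5′ end to the left of the plus-strand one. This was so in 686 of the 693 regions (99.0%, interval 97.9 to 99.6). In 643 regions (92.8%) the summit lay upstream of both nearest 5′ ends, in 43 it had passed one of them, and in 7 the 5′ ends overlapped. The window reaches farther upstream than downstream, so these shares are in part set by the rule. Where the ends faced away from each other the gap between them had a median of 484 bp, with quartiles of 295 and 740 bp and a range of 11 to 1830 bp. The nearer 5′ end had a median distance of 145 bp from the summit and the farther one 327 bp. The nearer end lay within 200 bp of the summit in 482 regions (69.6%, interval 66.0 to 73.0). Both ends lay within 200 bp in 165 regions and within 300 bp in 318, while in 195 the farther end was more than 500 bp away. Many worm transcripts are trans-spliced, so an annotated 5′ end can lie downstream of the true start and make the summit appear farther upstream than it is.

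Just inside the limit of the rule, 37 regions had a 5′ end over 900 and up to 1000 bp from the summit. Just outside it, 28 regions counted as one-strand promoters had an opposite 5′ end over 1000 and up to 1100 bp away.

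**Figure D1:**
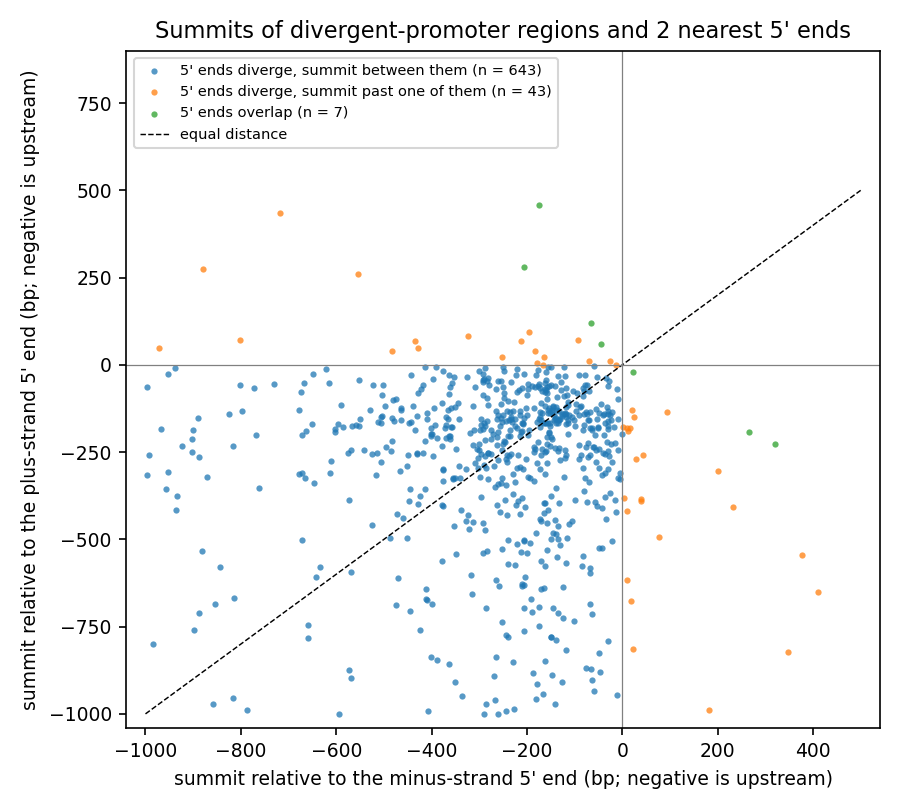
Position of each of the 693 summits relative to the nearest 5′ end on the minus strand (horizontal axis, bp) and on the plus strand (vertical axis, bp), negative values being upstream. Most points (643) fall to the lower left, upstream of both genes, and 318 points lie within 300 bp of both ends.

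Neither strand was preferred by position. The nearer gene was on the plus strand in 344 regions and on the minus strand in 349 (49.6%, interval 45.9 to 53.4, on the plus strand). The median signal value was 250.0 where the plus-strand gene was nearer and 246.9 where the minus-strand gene was. Summits stayed close to the centre of a gap only in part. With the gap cut into 3 equal parts, the central part held the summit in 31.0% of 42 gaps up to 200 bp (interval 17.6 to 47.1), 52.3% of 279 gaps over 200 and up to 500 bp (46.3 to 58.3), 40.3% of 253 gaps over 500 and up to 1000 bp (34.2 to 46.6) and 39.1% of 69 gaps over 1000 and up to 2000 bp (27.6 to 51.6). These gaps are those with the summit upstream of both ends. Summits spread evenly along a gap would fall equally often in each of the 3 parts. The intervals of the shortest and of the longest gaps include that share. In gaps over 1000 bp the rule also keeps the summit within 1000 bp of both ends, which draws it toward the middle. In the same order of gap length, the nearer 5′ end was at medians of 31, 112, 203 and 353 bp, and the farther one at 122, 233, 482 and 889 bp. The narrowest gaps above 0 lay between F32D8.14 and F32D8.5 (11 bp, signal value 571.3), between F25H9.6 and F25H9.7 (14 bp, 722.6) and between Y59E9AL.36 and nbet-1 (19 bp, 232.9). The widest lay between egrh-2 and lep-2 (1830 bp, 129.1), between Y39A1A.2 and rabx-5 (1782 bp, 101.7) and between C49A1.10 and clec-115 (1775 bp, 96.3).

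Each replicate's own candidate list was then used to ask how well a summit could be assigned to one gene of a pair. Both replicates had a candidate overlapping 689 of the 693 regions. Their summits differed by a median of 8 bp, with quartiles of 3 and 17 bp and an SD of the signed shift of 25.1 bp, and 664 pairs of summits (96.4%) were within 50 bp. At 1377 one-strand promoter regions the median shift was 14 bp. The same gene was nearer in both replicates at 658 of the 689 regions (95.5%, interval 93.7 to 96.9). Most exceptions sat where the pooled summit was about equally far from both genes. When the distances to the 5′ ends differed by at most 50 bp, the same gene was nearer at 99 of 127 regions (78.0%, interval 69.7 to 84.8). The count was 97 of 99 at a difference over 50 and up to 100 bp, 163 of 164 at one over 100 and up to 200 bp, and 299 of 299 above that. In 27 regions the replicates put opposite genes nearer, and the other exceptions had an equal distance in at least 1 replicate. The strongest region with opposite nearer genes, 804.8, lay between F44E5.4 (at -173 bp) and F44E5.5 (at -178 bp), which are close copies of an Hsp70 gene. It was followed by the regions of jmjd-4 and mev-1 (529.1), rde-4 and cox-14 (454.1), and teg-1 and mcm-10 (440.6). A nearer gene is a matter of position, and which gene of a pair the complex acts on was not measured.

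The strongest region lay between rpl-20, a large ribosomal subunit gene, and Y17G9B.5 on chromosome IV. Its signal value was 2635.3 in the list of reproducible regions, 1132.1 in replicate 1 and 1518.7 in replicate 2, with the summit 287 bp upstream of rpl-20 and 175 bp upstream of Y17G9B.5. The next, at K01G5.10 and tasp-1 (a threonine aspartase) on chromosome III, had 2545.8 (1028.8 and 1535.2 in replicates 1 and 2), and its summit lay 54 bp upstream of tasp-1 and 731 bp upstream of K01G5.10. The third, at rpl-15, another large-subunit gene, and K11H12.8 had 2493.1 (1011.3 and 1507.7) and lay 353 and 461 bp upstream of them. The fourth had 2339.7 (1079.6 and 1273.2), on chromosome IV from 15646303 to 15646994, with 5′ ends 149 and 375 bp away. In all 4, replicate 2 had the higher value. Over the 689 regions the median log2 ratio of replicate 2 to replicate 1 was 0.38 with an SD of 0.38, which cannot be read as a difference in binding because values are comparable only within a list.

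Below them came the region of nhl-2, a TRIM-NHL protein gene of small-RNA regulation, and tag-340 (1921.8), far from both ends at -843 and -580 bp. The region of ifet-1, a translational repressor gene, and rps-1 (1735.7) had its summit 515 and 253 bp upstream. That of the histone genes his-67 and his-68 (1734.2) lay 134 bp upstream of his-68, but histone genes have near-identical copies and could share reads, and the sources used here do not say how such reads were treated. The mitochondrial chaperonin gene hsp-60 shared a region with Y22D7AL.10 (1672.9) and was the farther gene, at -609 against -204 bp. The region of C47E8.4 and hsp-90, the cytosolic Hsp90 gene (1595.1), lay 297 and 378 bp upstream of them. That of drr-2 and set-16, an MLL-type histone methyltransferase gene (1550.7), lay 154 and 192 bp upstream of them. Among the 25 strongest, hsp-110 and rpn-3 (1125.9; 487.5 in replicate 1 and 636.0 in replicate 2), a heat shock protein and a proteasome subunit gene, were the only pair with a listed gene on each strand.

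The remaining regions of the strongest 25 had signal values from 1020.5 to 1517.7. Ribosomal protein genes stood at the regions of ska-3 and rps-12 (1487.8), rpl-12 and lin-54 (1447.5) and rps-19 and hsr-9 (1412.2). In the rpl-12 region the summit lay 25 bp upstream of rpl-12 and 368 bp upstream of lin-54, which encodes the DNA-binding subunit of the DRM complex. The eIF5A gene iff-2 was 65 bp from its summit (1517.7), against 870 bp for F54C9.14. The J-domain gene dnj-13 lay 202 bp from its summit, against 671 bp for F54D5.9 (1507.0). Chaperonin subunit genes stood beside unrelated neighbours, cct-8 with Y55F3AR.2 (1235.6) and cct-1 with mig-5, a Dishevelled gene of the Wnt pathway (1090.4). Other pairs were larp-1 and wip-1 (1432.3), gpap-1 and scpr-1 (1385.3), cux-7 and C07H6.2 (1070.9), the adaptin gene apb-1 with the Mediator gene mdt-19 (1070.4), icd-1 and vps-32.1, an ESCRT gene (1061.5), gmps-1 and cap-2, an actin capping gene (1055.2), and wve-1 and R06C1.4 (1020.5).

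Signal was higher at divergent than at one-strand promoters in the median, with wide overlap. The median signal value was 249.3 at the 693 divergent regions (quartiles 149.2 and 423.3, range 88.5 to 2635.3), against 186.1 at 1381 autosomal one-strand promoter regions (122.9 and 336.1, 88.4 to 5142.4). It was 154.7 at 1058 autosomal regions outside promoters. In replicate 1's own list the medians were 109.3 at divergent regions, 78.0 at one-strand regions and 65.2 outside promoters, and in replicate 2's they were 145.2, 108.5 and 93.3. Both replicates thus gave the same order. Regions are not replicates of a condition, so no test was made and the differences are descriptive. The divergent regions were at a median percentile of 64.4 among all autosomal regions, against 49.8 for one-strand regions and 40.1 for those outside promoters. They held 112 of the 325 autosomal regions above the 90th percentile, against 139 for the more numerous one-strand regions. Of all autosomal regions they made up 21.3%. Of the strongest 10 regions of the whole list they held 4, of the strongest 25 they held 8 and of the strongest 100 they held 25. Their share of the whole list was 17.4%. Since a divergent region has a pair of ends that can be near, regions were also split at a distance of 300 bp. Distances within each part were not matched, and the part of nearness in the signal was not tested. With a 5′ end within 300 bp, the medians were 250.2 at 613 divergent regions and 194.3 at 834 one-strand regions. With the nearest end farther away, they were 220.7 at 80 and 176.4 at 547. Merged divergent regions were also narrower, with a median width of 257 bp against 326 bp at one-strand promoters.

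**Figure D2:**
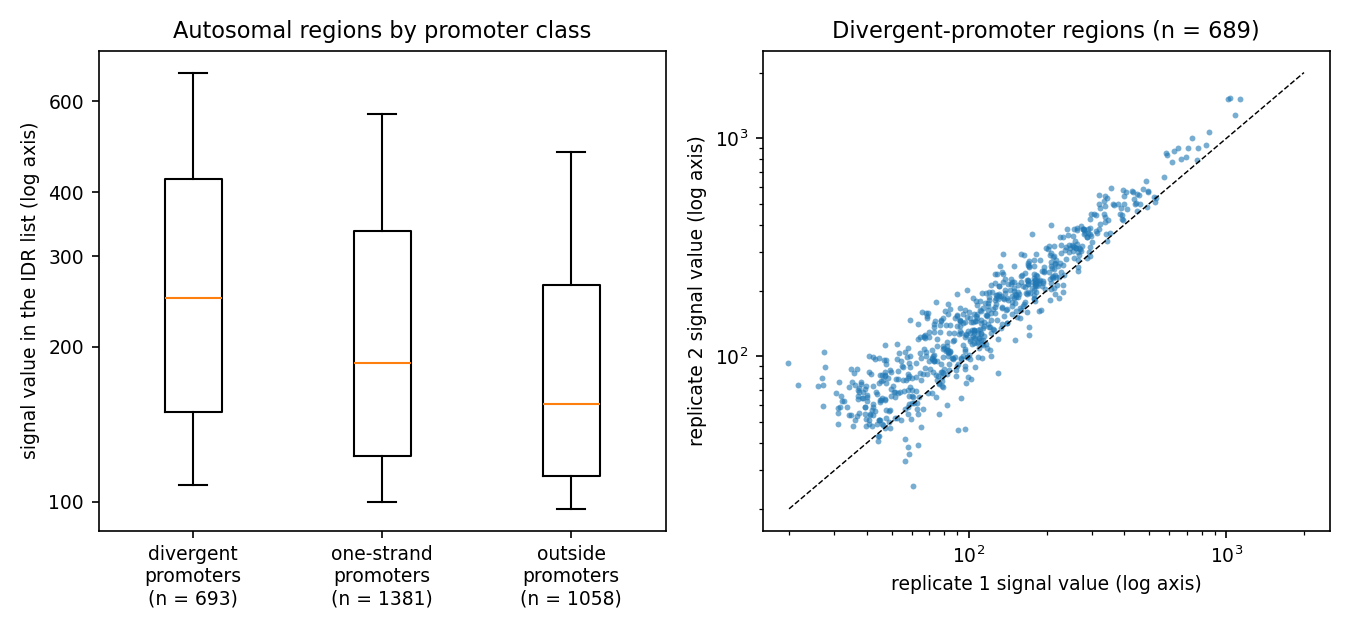
Left, signal values (log axis) of autosomal regions at divergent promoters, at one-strand promoters and outside promoters, with the median, quartiles (box) and 10th and 90th percentiles (whiskers) over regions. Medians are 249.3, 186.1 and 154.7. Right, signal of each divergent region in replicate 1 against replicate 2 (log axes, dashed line of equal values, n = 689), with most points above the line.

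Within the divergent regions the median signal value was lower for gaps over 500 bp than for shorter ones, though the ranges overlapped. It was 269.7 for gaps up to 200 bp, 271.4 over that and up to 500 bp, 237.7 up to 1000 bp and 219.7 up to 2000 bp. It was 249.3 where the summit lay between the ends, 232.9 in the 43 regions past one end and 298.1 in the 7 with overlapping ends. By chromosome, the medians were 241.5 (I, 160 regions), 223.3 (II, 119), 259.0 (III, 165), 263.2 (IV, 123) and 271.5 (V, 126). On every autosome the divergent median was above that of the one-strand regions, which were 181.7, 184.3, 192.6, 180.6 and 199.9 in the same order. The divergent share of promoter regions without a tRNA gene was 33.4% over the autosomes (interval 31.4 to 35.5), from 30.2% on II to 37.0% on III. When each replicate's strongest entries were taken alone it was 33.3% and 32.8%. On the X chromosome it was 8.86%, 32 of 361 regions (interval 6.14 to 12.3), with 8.70% and 7.92% in the replicates, and the X median signal value at divergent promoters was 224.8.

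To set these counts against the genome, every space of up to 2000 bp between neighbouring protein-coding genes was classed by the orientation of its genes, an added comparison. A divergent space lies directly upstream of 2 genes, a tandem space of 1 and a convergent space of none. On the autosomes, 681 of 2319 divergent spaces held a summit (29.4%, interval 27.5 to 31.3). Of tandem spaces 508 of 6480 did (7.84%, 7.20 to 8.52), and of convergent spaces 19 of 1881 (1.01%, 0.609 to 1.57). From the replicates' own lists the shares were 29.1% and 28.7% of divergent, 7.67% and 7.75% of tandem, and 0.957% and 1.06% of convergent spaces. Among divergent spaces the share was 16.2% up to 200 bp, 43.2% above that and up to 500 bp, 29.7% up to 1000 bp and 20.9% up to 2000 bp. Among tandem spaces in the same order it was 1.84%, 12%, 8.80% and 9.47%. Many short tandem spaces lie inside operons, whose downstream genes have no promoter of their own there. Operons were not marked here, and their part in these shares was not tested. The X chromosome had few divergent spaces, 176, of which 44 held a summit (25%, interval 18.8 to 32.1), against 10.4% of its tandem and 3.21% of its convergent spaces. The autosomal and X shares of bound divergent spaces therefore overlapped in their intervals, while the X chromosome's share of divergent regions among promoter regions was lower.

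**Figure D3:**
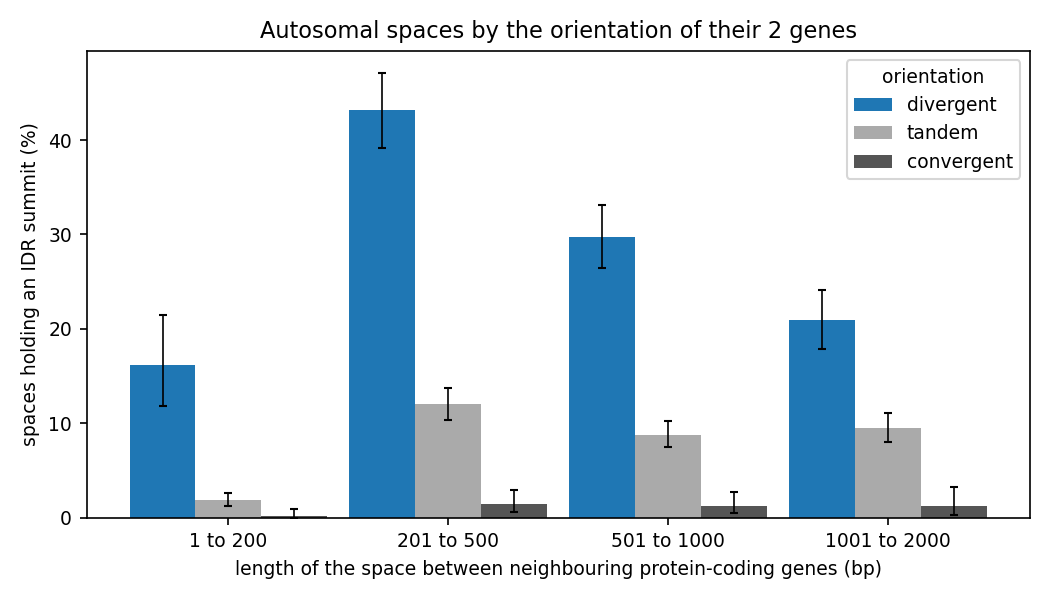
Percent of autosomal spaces between neighbouring protein-coding genes that held a summit (vertical axis), by length of the space and orientation of the genes. Bars are shares with exact 95% intervals over spaces. Divergent spaces over 200 and up to 500 bp reach 43.2%, against 12% of tandem spaces of that length.

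Weaker candidates of the same libraries, which overlapped no reproducible region and may be largely background, were less often at divergent promoters. Leaving out candidates over reproducible regions can itself lower their share there. Divergent promoters by the same rule held 21.3% of the reproducible autosomal regions, against 518 of 17133 weaker candidates (3.02%). Among promoter regions the divergent share was 33.4% for reproducible regions and 8.05% for weaker candidates. The summit was upstream of both genes in 92.8% of the reproducible regions, against 69.5% of the weaker candidates at divergent promoters. Other traits were closer, with 99.0% of the former and 96.9% of the latter head to head. The nearer end was within 200 bp in 69.6% and 61.8%, in the same order. The weaker candidates had a median signal value of 32.3 at divergent and 25 at one-strand promoters in the pooled candidate list.

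The pairs comprised 1358 genes in 680 pairs, of which 13 had 2 regions. In the promoter windows of all 693 regions there were 1410 autosomal protein-coding genes, 8.18% of the 17242 on the autosomes and 50.8% of the 2778 with any region in their window. Of the 4640 genes beside a divergent space of at most 2000 bp, 1287 (27.7%) had a divergent region in the window. The lists below are set beside both shares, without a test. Among the members, 240 had a gene of at least 1 of 24 lists as the nearest on either strand, and 31 had one on both strands.

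Genes of the ribosome led the lists. Of 48 autosomal large-subunit protein genes, 27 (56.2%) had a divergent region in the window, and 15 a one-strand region, against 8.18% and 7.85% of all autosomal protein-coding genes. Of 31 small-subunit genes, 17 (54.8%) had a divergent and 10 a one-strand region. Among those beside a divergent space, 27 of 29 large-subunit and 17 of 20 small-subunit genes were bound there, against 27.7% of all such genes. Where such a gene was one of a pair it was more often the farther one. Large-subunit genes were nearer in 10 and farther in 17 cases (9 and 18 in replicate 1, 10 and 17 in replicate 2). Small-subunit genes were nearer in 5 and farther in 12, which held in both replicates. The median signal value over the regions was 395.6 at large-subunit and 604.3 at small-subunit genes, against 253.0 over all divergent genes.

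Other genes of protein synthesis and turnover had divergent regions in like or smaller shares. They were found at 19 of 39 translation factor genes (48.7%), including eef-1A.1, eef-2 and iff-2, and at 9 of 31 aminoacyl-tRNA synthetase genes (29.0%). Of proteasome subunit genes 16 of 33 had one (48.5%), and of mitochondrial ribosomal protein genes 20 of 70 (28.6%). Of chaperonin and heat shock genes 19 of 54 did (35.2%), among them cct-1, cct-2, cct-5, cct-6, cct-7, cct-8, hsp-60 and hsp-90, against 5 with a one-strand region. These genes were also mostly the farther of their pair, with 5 nearer and 14 farther in the pooled list and in each replicate. Beside a divergent space of at most 2000 bp, 19 of 23 translation factor genes (82.6%), 15 of 21 proteasome (71.4%), 18 of 26 mitochondrial ribosomal (69.2%), 17 of 29 chaperonin and heat shock (58.6%) and 7 of 13 synthetase genes (53.8%) were bound there, against 27.7% of all such genes. Of the 2 strongest regions of each of these lists, those not yet given follow. They lay at mrps-7 and Y57G11C.3 (866.2), and at ears-2, a glutamyl-tRNA synthetase gene, and uncp-18 (801.0). Lower ones were at rpt-2 and aps-1 (487.9), Y39A1A.22 and mrpl-12 (460.9), and nars-1 and nduf-6 (381.6). The pair hsp-16.2 and hsp-16.41 of small heat shock genes shared 1 region (367.9, 180.8 in replicate 1 and 179.1 in replicate 2) with its summit 157 and 64 bp upstream. Those genes have near-identical copies, and reads could be shared between them. The median signal value was 234.0 at translation factor, 244.7 at proteasome and 219.7 at synthetase genes, below the 253.0 over all divergent genes. It was 263.2 at mitochondrial ribosomal and 442.0 at chaperonin and heat shock genes.

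Genes of the nucleus followed. Divergent regions lay at 16 of 35 splicing factor genes (45.7%), 12 of 26 nuclear pore genes (46.2%), 16 of 51 cell cycle and DNA replication genes (31.4%), 15 of 55 genes of RNA polymerase, TFIID and Mediator (27.3%) and 10 of 47 of histone methylation and acetylation (21.3%). Of those beside a divergent space, 10 of 13 RNA polymerase, TFIID and Mediator genes (76.9%), 16 of 22 splicing (72.7%), 12 of 17 nuclear pore (70.6%), 9 of 13 histone-modifying (69.2%) and 15 of 23 cell cycle genes (65.2%) were bound there, against 27.7% of all. Further regions among the 2 strongest of each of these lists included that of hat-1, a histone acetyltransferase gene, and M03C11.3 (957.9). Others lay at npp-3 and top-2 (708.3), ift-43 and mdt-26 (646.6), prp-19 and K10D2.5 (626.5), and npp-14 and cel-1 (506.1). Median signal values were 140.7 at nuclear pore and 247.6 at splicing genes, below the 253.0 over all divergent genes. They were 287.6 at cell cycle, 367.8 at RNA polymerase, TFIID and Mediator, and 554.7 at histone-modifying genes. Cell cycle genes were more often the nearer gene, in 11 of 16 cases, with 12 in replicate 1 and 10 in replicate 2. The region of efl-1 and fbxa-90 (849.0, 364.4 in replicate 1 and 496.0 in replicate 2) lay 182 bp from efl-1 and 957 bp from the F-box gene. That of vps-51 and lin-35, the worm retinoblastoma gene (653.7, 276.1 and 382.1), lay 214 and 204 bp from them, close to the middle. The region of orc-5 and cyb-1, an origin recognition and a cyclin B gene (392.8, 184.5 and 209.6), lay 145 and 483 bp from them. The weakest pair of this kind was iff-1 and cdk-1 (90.4, 35.5 and 48.0), and the replicates differed in which was nearer.

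Among the genes encoding subunits of SWI/SNF complexes, 2 of 12 had a divergent region (16.7%), against 8.18% of all autosomal protein-coding genes. A one-strand region stood at 7.85% of all autosomal protein-coding genes, but at 6 of these 12 SWI/SNF genes. Of the 7 beside a divergent space 2 were bound there (28.6%), near the 27.7% of all such genes. The region of perm-3 and swsn-6, an actin-related subunit gene (542.7, 235.0 in replicate 1 and 306.7 in replicate 2), lay 98 and 131 bp from them. The region of spo-11, a meiotic recombination gene, and swsn-4, the ATPase gene (221.3), was almost equally far from both, at 569 and 593 bp, and replicate 1 put its summit at equal distances. Shares were 12 of 38 for the respiratory chain (31.6%), 13 of 60 for membrane trafficking (21.7%), 12 of 61 for ubiquitin conjugation (19.7%) and 3 of 17 for the vacuolar ATPase (17.6%). Beside a divergent space they were 12 of 20, 12 of 22 (54.5%), 12 of 26 (46.2%) and 3 of 7 (42.9%) in the same order, against 27.7% of all. Of the 2 strongest regions of each of these lists, those not yet given follow. They lay at mcrs-1 and atp-1, an ATP synthase gene (900.2, 14 bp from atp-1), Y71H2AM.20 and cox-6B (861.9), and rab-18 and kbp-4 (774.3). Lower ones were at ubq-2, a ubiquitin gene, and frg-1 (650.9), C17H12.2 and vha-8 (634.3), aka-1 and ubc-6 (361.9), and sqv-3 and vha-1 (299.9).

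Genes of large tissue-specific or environmental families had lower shares at divergent regions than the 8.18% of all genes. Of 1281 chemoreceptor genes 10 had one (0.781%), of 246 nuclear hormone receptor genes 3 (1.22%), of 237 C-type lectin genes 4 (1.69%), of 305 F-box genes 9 (2.95%) and of 129 collagen genes 6 (4.65%). Of 31 major sperm protein genes 0 did, and of 106 neuropeptide and insulin-like genes 1 did (nlp-4, beside exos-3, 303.0). Among those beside a divergent space of at most 2000 bp, the shares were 10 of 280 chemoreceptor genes (3.57%), 4 of 75 C-type lectin genes (5.33%), 3 of 43 nuclear hormone receptor genes (6.98%), 1 of 12 neuropeptide genes (8.33%), 9 of 94 F-box genes (9.57%), 0 of 14 major sperm protein genes and 6 of 32 collagen genes (18.8%), against 27.7% of all. The collagen share was the closest to that of all genes. Some stood opposite genes of general function, as did nhr-47 opposite the J-domain gene dnj-19 (890.7, summit 6 bp from nhr-47 and 390 bp from dnj-19) and sri-5 opposite rsr-1 (637.5). Others among the 2 strongest of their list were at fbxb-85 and hex-3 (946.5), nhr-142 and F44E7.9 (432.1), col-71 and Y49F6B.2 (384.2), and ciao-1 and clec-104 (218.6). At one-strand promoters, 22 of 246 nuclear hormone receptor genes had a region (8.94%), near the 7.85% of all autosomal protein-coding genes.

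**Figure D4:**
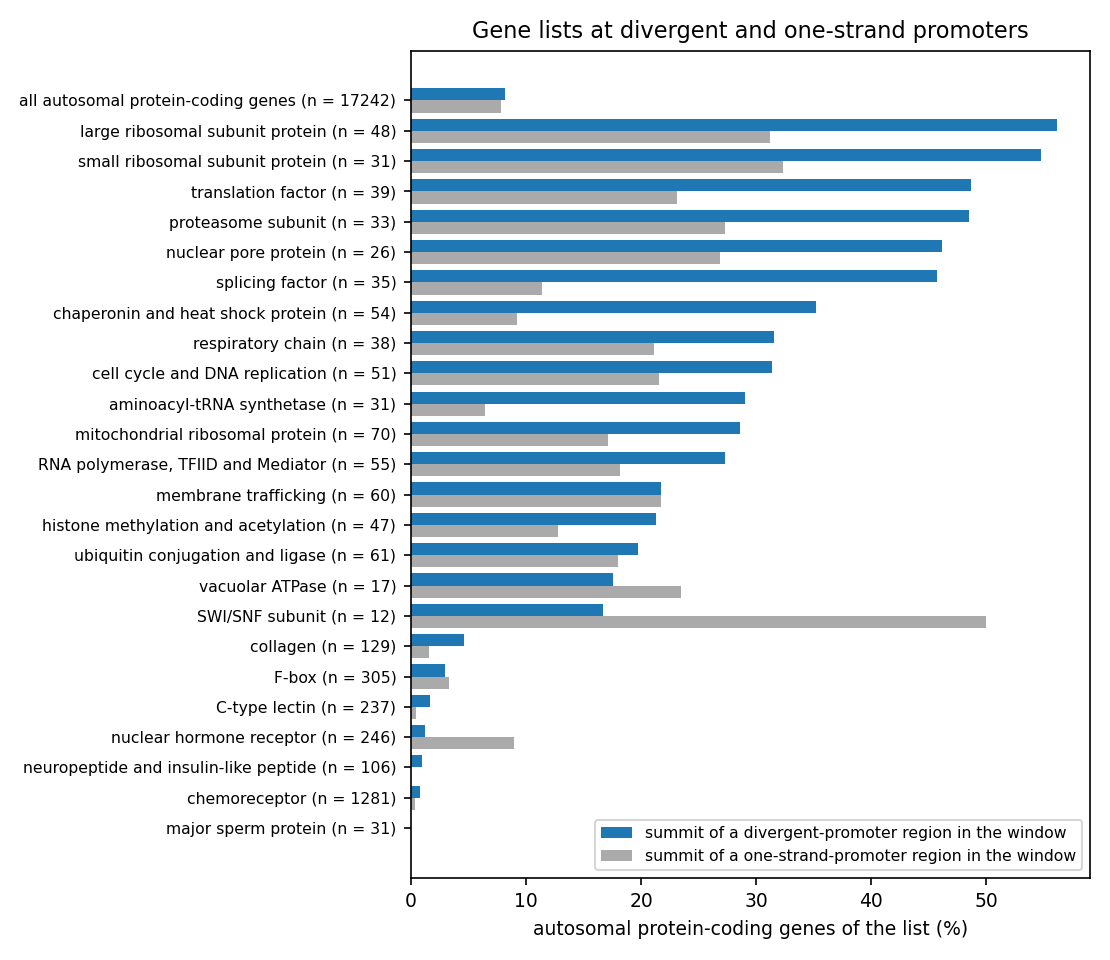
Percent of the autosomal genes of each list (n beside its name) with the summit of a divergent region (blue) or of a one-strand region (grey) in the promoter window, with all autosomal protein-coding genes in the top row (8.18% and 7.85%). Ribosomal protein lists have the highest divergent shares (56.2% and 54.8%) and major sperm protein genes have none.

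Pairs with a listed gene on both strands came from several groups. Ribosomal protein genes faced each other at rps-14 and rpl-36 (604.3, 208.7 in replicate 1 and 399.4 in replicate 2), at rps-10 and rpl-24.1 (511.0, 202.5 and 309.5) and at rpl-39 and rps-30 (364.1, 137.7 and 227.2). In the first the summit lay 262 and 401 bp upstream, in the second 378 and 232 bp, and in the third 241 and 258 bp. The pair eef-1A.1 and rfc-4, a replication factor gene (935.3, 354.8 and 589.6), had the summit 369 and 172 bp upstream. Other mixed pairs were rpl-7A and set-21 (770.6), col-38 and rpl-5 (546.7), rpl-28 and mrpl-49 (409.3), pas-4 and rpb-3 (402.3), rpl-36.A and nuo-1 (395.6), snx-13 and snr-1 (351.7), clec-53 and uba-5 (290.7), rab-11.1 and rpl-7 (243.4), vps-25 and uba-2 (237.3) and srz-97 and clec-57 (215.6). The weaker ones were snr-3 and rsp-5 (189.9), pbs-2 and eif-6 (169.7), prp-9 and mrps-18B (152.5), mrps-6 and rpn-8 (110.4), npp-25 and mrps-10 (108.8), eif-1 and vps-24 (101.6) and fbxa-153 and str-12 (96.5). The SR protein genes rsp-2 and rsp-1 (585.9), the collagen genes col-117 and col-3 (94.5) and the F-box genes fbxa-67 and fbxa-11 (98.3) paired with a relative, and reads could be shared there too.

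More than 1 summit in a pair was uncommon in the list of reproducible regions. Of the 693 regions, 12 were merged from more than 1 entry, and in 4 of these the entries had different nearer genes. In the 13 pairs with 2 separate regions the stronger reached 583.2 at F40F11.3 and mig-38 (the other 148.0), 575.6 at ecps-1 and atx-2 (390.5) and 491.1 at zip-4 and nol-58 (258.2). In the replicates' own candidate lists, more than 1 candidate overlapped 68 of the 693 regions (9.81%) in replicate 1 and 65 (9.38%) in replicate 2. In 51 regions a further gene had its 5′ end in reach.

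GC content was raised in a narrow zone at the summits. Mean GC content of 25 bp bins was 51.3% and 50.9% on the left and right of divergent summits, and 50.3% on both sides of one-strand summits. It dropped to 29.0% and 28.7% at 113 bp left and 112 bp right of divergent summits, below the values of 35.0% and 34.5% at one-strand summits. Centres of 1437 divergent spaces without a summit stayed between 33.5% and 33.9% at the same distances. Over 200 bp the median was 39.0% at divergent regions, 42.0% at one-strand regions, 46.0% outside promoters, 36.5% at weaker candidates at divergent promoters and 32.5% at the summit-free centres, and 33.0% in the 200 bp upstream of all autosomal genes. GC content moved with signal, at medians of 41.5%, 39.0%, 38.0% and 37.0% in 4 equal groups of the divergent regions ranked from strongest to weakest. Its part in the signal was not tested.

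**Figure D5:**
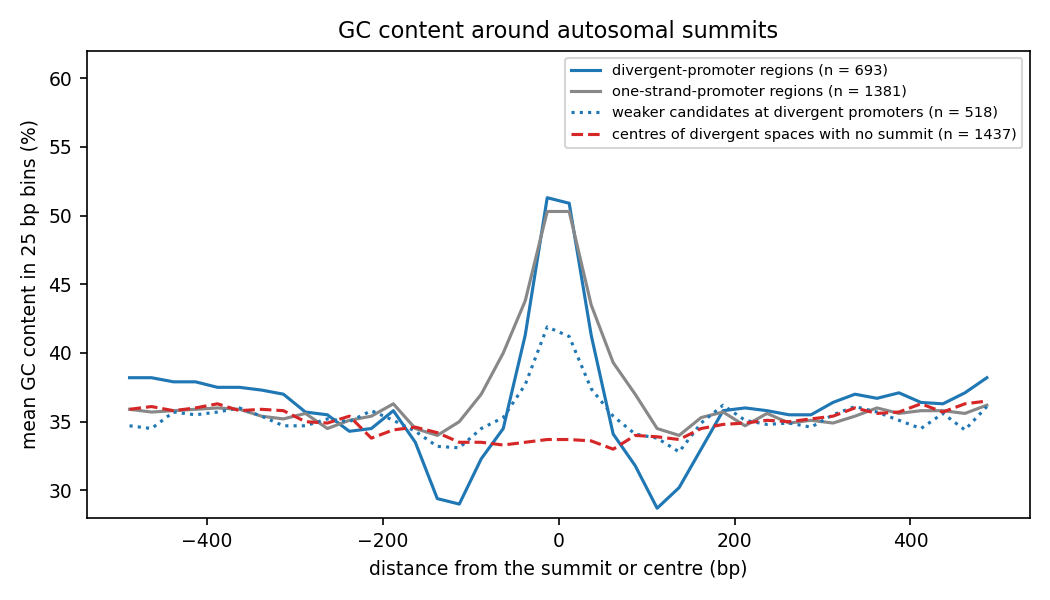
Mean GC content in 25 bp bins (vertical axis) against distance from the summit, or from the centre for spaces without a summit (horizontal axis, bp). Divergent regions peak at 51.3% and dip to 29.0% on the left and 28.7% on the right, while the dip is shallower at one-strand regions. The centres without a summit stay flat, but they are midpoints, so a local peak or dip would be blurred there.

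Matches to the 12 motifs were counted in the 200 bp around each summit, on either strand. GAGAGA, the letters of GAGA-type sites, stood in 27.0% of divergent regions, against 44.5% of one-strand regions, 61.2% of regions outside promoters and 16.2% of the 200 bp upstream of all autosomal genes. The TATA-box letters TATAAA stood in 16.2% of divergent regions, against 14.6% of one-strand regions and 30.6% upstream of all genes. The GATA-type letters TGATAA were in 9.52%, against 9.78% and 22.9%. More common than upstream of all genes were TTGGCGC, an E2F-type string, in 7.79% (6.37% of one-strand regions and 1.53% of all), CCGCCC, the core of an SP1-type box, in 12.7% (11.3% and 5.84%), and TTCCCGC in 4.76% (4.56% and 2.29%). The E-box CACGTG was in 3.61%, against 7.17% and 4.35%. Runs of 8 T stood in 18.6%, against 11.4% of one-strand regions and 26.4% upstream of all genes, and the splice-site letters TTTCAG in 26.1%, against 18.9% and 37.5%. The others were CCAAT at 27.7% (29.0% of one-strand regions and 32.3% upstream of all genes), TGACGT at 8.80% (8.91% and 6.83%) and ACTTCCG at 1.15% (1.09% and 1.69%). Strings rich in G and C are more frequent in windows of higher GC content, and no share was matched for it.

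Bases around the summits also followed the direction of the genes, an added comparison. Over the 100 bp next to the summit and on the strand read toward the gene, the median T content was 35.0% toward the plus-strand gene and 36.0% toward the minus-strand gene at the 643 regions between both ends. At 1264 one-strand regions with the summit upstream it was 35.0% toward the gene and 28.0% away from it. Divergent regions thus had on both sides the value that one-strand regions had on the side of their gene.

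All 8192 heptamers were counted, with each and its reverse complement as 1, and 3 were picked after their values were seen. AACGCGC, the most over-represented against summit-free centres, stood in 12.7% of divergent regions, against 8.54% of one-strand regions, 1.39% of those centres and 1.80% upstream of all genes. ACCGTAC, the most over-represented against one-strand regions, stood in 8.66%, against 1.96%, 1.60% and 1.54%. By chromosome from I to V its share was 11.9%, 10.1%, 7.88%, 8.94% and 3.97% of divergent regions, against 1.94%, 1.45%, 2.85%, 1.12% and 2.43% of one-strand regions. ACAACAG was the most under-represented against one-strand regions, at 0.577% against 3.48%. A pick of the most extreme among so many is biased upward, and the values are a description only. The median signal value was 306.4 with AACGCGC and 240.2 without it, and 252.7 with ACCGTAC and 249.3 without it. In the printed windows AACGCGC is seen at dnj-19 and nhr-47 and at hsp-90, and ACCGTAC at eef-1A.1 and rfc-4 and at cct-8.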

How the data were processed

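Regions came from 2 biological replicates of 1 group. Per the deposited readme, the authors mapped reads to ce10 and ce11, made candidate lists for each replicate and for the pool, and thresholded them by irreproducible discovery rate (IDR). The sources used here do not name the aligner or peak caller. The authors' signal value (column 7 of the deposited lists) is comparable within a list only, and depth is unknown. The 4087 IDR entries in ce11 were merged at 1 bp overlap into 3976 regions. Coordinates are 1-based, and gene models were Ensembl release 115 (WBcel235). Candidate lists hold 30000 entries each. Replicate values are those of the strongest overlapping candidate, and replicate-alone shares use as many of its strongest entries as the IDR list holds. Percentiles are ranks among merged autosomal regions. The median of replicate signals covers regions with a match.

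Shares have exact Clopper-Pearson 95% intervals, which cover counting error over regions or genes only. No test was made, since regions are not replicates. Members, lists and motifs were chosen with earlier results of these data known. Named were the 25 strongest members, the 2 strongest for each of 24 lists, members with list genes on both strands, the 3 widest and narrowest gaps and SWI/SNF genes. The 4 strongest regions with opposite nearer genes, 3 pairs with 2 regions and the last 2 printed windows were chosen after their values were seen. The genes of 2 regions are not reported here. The list members were taken by gene symbol. The assignment of regions was tested on simulated positions. Python 3.11.15, numpy 2.4.6, scipy 1.17.1 and pysam 0.24.0 were used.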

Additional observations from a re-analysis of the deposited data

How the results depend on the processing

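Of 42 recomputed values, 30 stayed within 1.5 times (counts) or within counting error or the spread of the replicates (shares and percentiles) under 7 alternatives, and 12 moved. With a promoter window of 300 bp on each side, 318 regions were divergent, 9.78% of the autosomal regions, with a nearer end within 200 bp in 89.9% and a median percentile of 68.5. With a window of 2000 bp upstream these were 28.9%, 62.6% and 62.6. In the strongest 1988 regions the share was 28.2% and the percentile 56.9. With 1 5′ end per gene the percentile was 64.7. From 1 replicate's list alone it lay between 65.7 and 65.8. The divergent percentile exceeded that of one-strand regions, 47.6 to 55.1, under every alternative run. The window sets how many regions count as divergent and how near their ends lie. The cause of the other shifts was not tested. No paired analysis was possible because the series has 1 group. Without depth or control data, weak binding cannot be told from none.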
